A study of Mus with 6 samples.

Results

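The expression of 10 marker genes of blood platelets and red blood cells was examined in RNA sequencing libraries of microvascular endothelial cells from mouse hearts. The genes were chosen by symbol, with earlier results of these data known, and all 10 were present among the 20893 genes of the FPKM table. They comprise 5 platelet markers (Ppbp, Pf4, Itga2b, Gp9 and Gp1bb) and 5 erythroid markers (Hba-a1, Hba-a2, Hbb-bs, Hbb-bt and Alas2). The libraries came from 3 preparations of Ccl28 knockout mice (KO) and 3 of wild-type mice (WT), numbered 2, 3 and 4 in each genotype. Mice of both genotypes had undergone left coronary artery ligation, an operation that causes a myocardial infarction. Magnetic beads had been used to keep cells that carry CD31 and to remove those that carry CD45. The genotype field of KO replicates 3 and 4 gives Ccl29 and Ccl30, and the titles, which give Ccl28, were followed. Strain, age, sex, the design of the knockout allele and the time after ligation are not given in the sources used here, nor is it stated whether a library is 1 animal, so each p-value reflects just the variation among these 6 libraries, and that variation may be technical.

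Platelets are anucleate fragments of megakaryocytes that keep a store of megakaryocyte mRNA. Young red blood cells, the reticulocytes, likewise keep globin mRNA after the nucleus is lost. Platelets carry CD31 on their surface, and neither platelets nor mature red cells carry CD45, so a selection by these 2 proteins is not directed against platelets. All levels below are FPKM, which divide fragments by library size and by transcript length, as deposited, and are given with the SD over n = 3 libraries per genotype. Each log2 fold change sets KO over WT after adding 1 to the FPKM, so changes of low genes come out too small, and adjusted p-values are from limma over 10806 genes with at least 1 FPKM in at least 3 libraries. In these bulk libraries fewer cells of a type and less RNA per cell cannot be told apart.

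The libraries held 36004457 to 37780513 reads assigned to genes in KO and 39104282 to 40500067 in WT. Ccl28, the targeted gene, had 0 reads in each KO library and 16, 11 and 24 reads in WT replicates 2, 3 and 4. The endothelial genes Pecam1, which encodes CD31, and Cdh5, which encodes VE-cadherin, had means of 610.8 ± 45.1 and 569.4 ± 52.4 FPKM in KO, and 704.7 ± 35.9 and 766.3 ± 14.1 FPKM in WT. Ptprc, which encodes CD45, had 1.01 to 1.41 FPKM in KO and 0.871 to 1.71 FPKM in WT. Across the table, 18.3% of the 10806 tested genes were higher and 25.8% were lower in KO at an adjusted p of 0.05. The log2 fold change followed transcript length: in the 2162 genes of shortest transcript its median was 0.35 and in the 2161 longest -0.38.

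Of the 10 markers, 8 were higher in KO than in WT, 4 from each set, read against the 18.3% of all tested genes that were higher. The alpha-granule chemokine genes Ppbp and Pf4 rose most, with means 2.12-fold and 2.26-fold those of WT. The glycoprotein genes Gp9 and Gp1bb and the 4 globin genes rose 1.43-fold to 1.80-fold. Itga2b and Alas2 did not pass the test. No marker had a negative log2 fold change. In 7 of the 10 every KO library lay above every WT library, a pattern seen in 22.8% of tested genes. All 10 markers passed the expression filter, but Gp1bb passed only through its KO libraries, so its groups could not overlap. Its call and its separation are therefore not counted as support. Among the other 4 platelet markers 3 rose, and in 3 every KO library lay above every WT library.

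**Figure D1:**
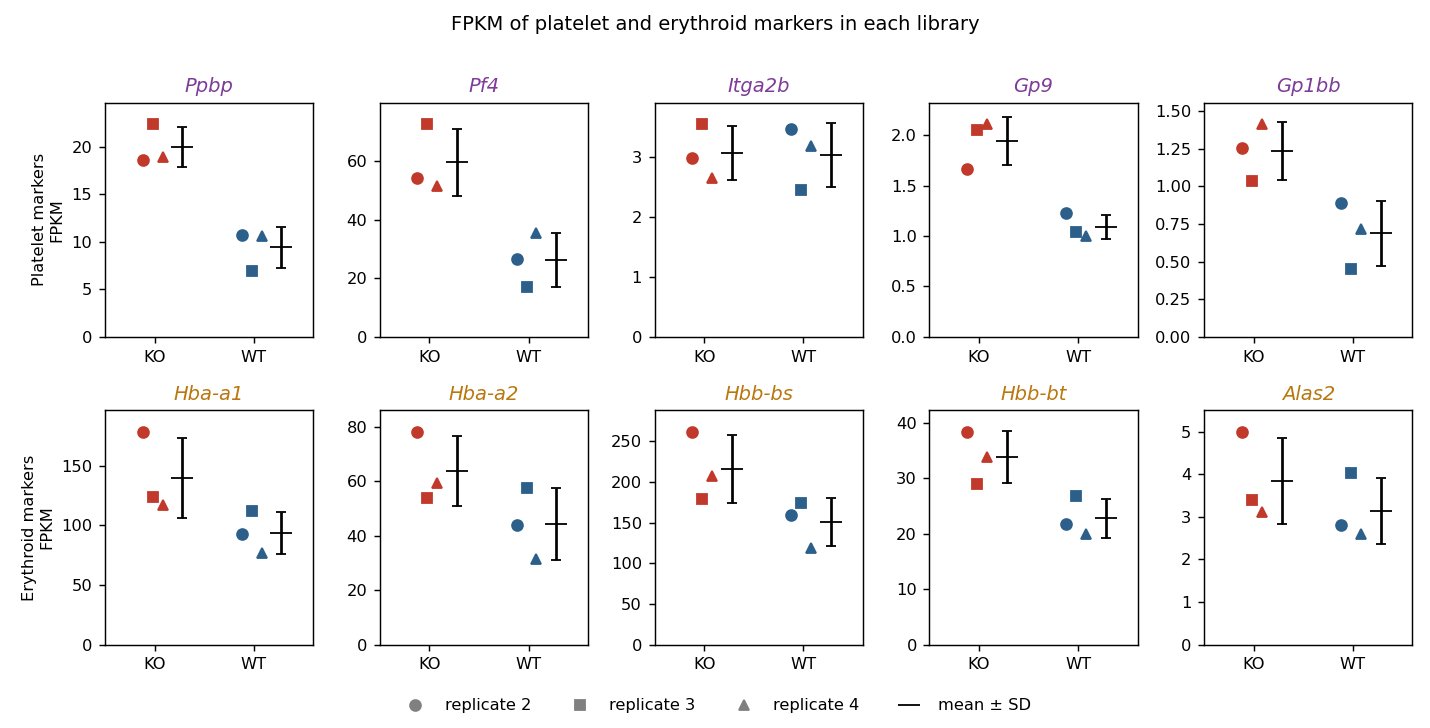
FPKM of the 5 platelet markers (top row) and 5 erythroid markers (bottom row) in each KO and WT library, with the mean ± SD of each genotype and 1 symbol shape per replicate number. Ppbp, Pf4, Gp9 and Gp1bb are separated by genotype, Itga2b is not, and KO replicate 2 is the highest library in each erythroid panel.

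Ppbp encodes pro-platelet basic protein, the precursor of the chemokine CXCL7, which is stored in platelet alpha granules. It is gene 57349 on chromosome 5 from 90768518 to 90770063 (GRCm38). Its level was 18.5, 22.3 and 18.9 FPKM in KO replicates 2, 3 and 4, against 10.7, 6.97 and 10.6 FPKM in the WT replicates of the same numbers. The groups did not overlap, and the lowest KO library was above the highest WT library by more than the SD of either group. The log2 fold change was 1.03 (SE 0.14, limma adjusted p = 0.000785), from 738 to 900 reads per KO library and 295 to 468 per WT library.

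Pf4 encodes platelet factor 4 (CXCL4), another alpha-granule chemokine, which in mice is also made by some macrophages. It is gene 56744 and lies 2371 bases beyond Ppbp on chromosome 5, from 90772435 to 90773383. Pf4 was the most abundant platelet marker, at 54.3, 72.6 and 51.7 FPKM in KO replicates 2, 3 and 4, and 26.7, 16.9 and 35.4 FPKM in WT replicates 2, 3 and 4. The groups did not overlap, with WT replicate 3 the lowest library, as for Ppbp. The log2 fold change was 1.19 (SE 0.22, limma adjusted p = 0.0026).

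Itga2b encodes integrin alpha-IIb (CD41), which pairs with the product of Itgb3 to form the platelet fibrinogen receptor. It is gene 16399 on chromosome 11 from 102453297 to 102469883. Itga2b had 2.98, 3.54 and 2.65 FPKM in KO replicates 2, 3 and 4, against 3.47, 2.45 and 3.18 FPKM in WT replicates 2, 3 and 4. The groups overlapped fully, and the log2 fold change of 0.01 (SE 0.13, limma adjusted p = 0.947) was smaller than its error. With 328 to 453 reads per KO library and 329 to 483 per WT library, Itga2b was counted about as deeply as Ppbp in WT. The FPKM ratio of Pf4 to Itga2b was 18.2 to 20.5 in KO libraries and 6.91 to 11.1 in WT libraries, so the 2 markers did not change in step.

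Gp9 and Gp1bb encode glycoprotein IX and the beta chain of glycoprotein Ib, subunits of the platelet receptor for von Willebrand factor. Gp9, gene 54368 on chromosome 6 from 87776131 to 87779786, had 1.67, 2.05 and 2.11 FPKM in KO replicates 2, 3 and 4, and 1.224, 1.04 and 0.996 FPKM in WT replicates 2, 3 and 4. Every KO library was above every WT library, with a log2 fold change of 0.49 (SE 0.11, limma adjusted p = 0.00527). Gp1bb, gene 14724 on chromosome 16 from 18620319 to 18622403, had 1.26, 1.03 and 1.41 FPKM in KO replicates 2, 3 and 4, and 0.888, 0.454 and 0.718 FPKM in WT replicates 2, 3 and 4. Its log2 fold change was 0.41 (SE 0.13, limma adjusted p = 0.0262), resting on 80 to 106 reads per KO library and 37 to 75 per WT library. The Gp1bb call was lost without WT replicate 3 (limma adjusted p = 0.0914) and without WT replicate 4 (limma adjusted p = 0.0619). With any KO library left out, Gp1bb did not pass the expression filter and was not tested. Gp1bb also shares 593 bases of its locus with Septin5, a cytoskeletal gene, so reads of that stretch may have been counted for either gene. Septin5 itself had 1.12 to 2.02 FPKM in KO and 1.66 to 2.71 FPKM in WT.

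The erythroid markers were the more abundant set. Hba-a1 and Hba-a2 encode adult alpha globin and Hbb-bs and Hbb-bt adult beta globin, the chains of haemoglobin. The alpha genes (15122 and 110257) lie 12005 bases apart on chromosome 11, Hba-a1 from 32283672 to 32284486 and Hba-a2 from 32296492 to 32297310. The beta genes lie 12599 bases apart on chromosome 7, Hbb-bt (gene 101488143) from 103812524 to 103813923 and Hbb-bs (gene 100503605) from 103826523 to 103827928. Each pair is nearly identical in sequence, so the split of reads within a pair is uncertain. Even so, the 4 genes together took only 0.0232% to 0.0335% of reads assigned to genes in KO and 0.0149% to 0.0223% in WT.

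Hbb-bs, the highest of the 10 markers, had 261.7, 179 and 207.5 FPKM in KO replicates 2, 3 and 4, against 159.6, 174.2 and 118.2 FPKM in WT replicates 2, 3 and 4. The groups were separated by a narrow margin, since KO replicate 3 lay just above WT replicate 3. Its log2 fold change was 0.52 (SE 0.16, limma adjusted p = 0.0257). The call was lost without KO replicate 2 (limma adjusted p = 0.0839), KO replicate 4 (limma adjusted p = 0.0587) or WT replicate 4 (limma adjusted p = 0.088).

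Hba-a1 had 178.8, 124.2 and 117.3 FPKM in KO replicates 2, 3 and 4, and 92.4, 112.4 and 77 FPKM in WT replicates 2, 3 and 4. KO replicate 2 stood well above the rest, and the other KO libraries were close to WT replicate 3. Its log2 fold change of 0.56 (SE 0.17, limma adjusted p = 0.0222) no longer passed without KO replicate 2 (limma adjusted p = 0.0602) or WT replicate 4 (limma adjusted p = 0.0813). Hba-a2 had 78.3, 53.8 and 59.6 FPKM in KO replicates 2, 3 and 4, and 43.9, 57.6 and 31.3 FPKM in WT replicates 2, 3 and 4. Here the groups overlapped, since WT replicate 3 exceeded KO replicate 3. The log2 fold change was 0.54 (SE 0.20, limma adjusted p = 0.0486), and the adjusted p lay between 0.0847 and 0.159 without KO replicate 2, KO replicate 4, WT replicate 2 or WT replicate 4.

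Hbb-bt had 38.4, 29 and 33.8 FPKM in KO replicates 2, 3 and 4, against 21.7, 26.7 and 19.9 FPKM in WT replicates 2, 3 and 4. It was the globin gene with the clearest separation, at a log2 fold change of 0.55 (SE 0.12, limma adjusted p = 0.00625), and it passed with any 1 library left out. Alas2 encodes the erythroid 5-aminolevulinate synthase, the first enzyme of haem synthesis in red cell precursors, and is gene 11656 on chromosome X from 150547417 to 150570622. It had 5, 3.4 and 3.11 FPKM in KO replicates 2, 3 and 4, and 2.8, 4.03 and 2.59 FPKM in WT replicates 2, 3 and 4. The groups overlapped and the log2 fold change of 0.22 (SE 0.17) did not pass (limma adjusted p = 0.309). The annotated span of Apex2, a DNA repair gene, covers the Alas2 locus, and Apex2 had 0.517 to 0.546 FPKM in KO and 0.387 to 0.593 FPKM in WT.

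The platelet and erythroid sets followed different libraries. All 5 erythroid markers were highest in KO replicate 2 among all libraries, highest in WT replicate 3 among the WT libraries and lowest in WT replicate 4. Platelet markers did not share that order: 4 of 5 were lowest of all libraries in WT replicate 3, and 3 of 5 were highest in KO replicate 3. Summed over their 5 genes, the platelet markers reached 78.8, 101.6 and 76.8 FPKM in KO replicates 2, 3 and 4, and 43, 27.8 and 50.9 FPKM in WT replicates 2, 3 and 4. The erythroid markers summed to 562.1, 389.3 and 421.3 FPKM in KO replicates 2, 3 and 4, and to 320.4, 375 and 249 FPKM in WT replicates 2, 3 and 4. WT replicate 3 therefore had the lowest platelet sum and the highest erythroid sum of the WT libraries.

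**Figure D2:**
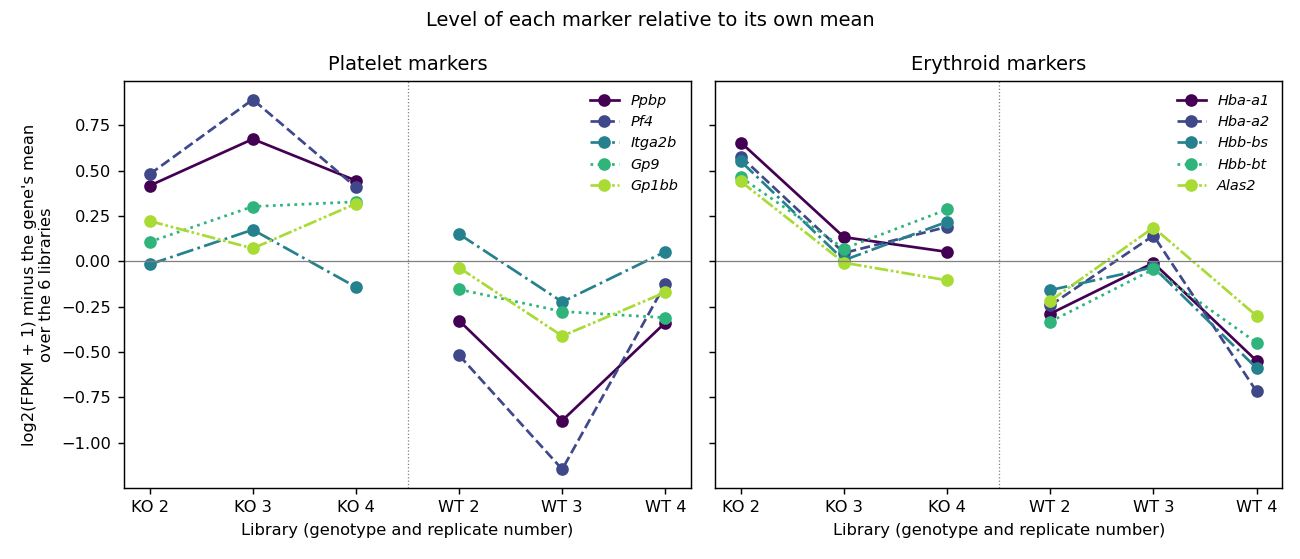
Level of each marker in each library as log2(FPKM + 1) minus that gene's mean over the 6 libraries, platelet markers on the left and erythroid markers on the right; lines join libraries of a genotype to guide the eye only. The 5 erythroid lines run together with peaks at KO 2 and WT 3, while Ppbp and Pf4 peak at KO 3 and are lowest at WT 3, at -0.88 and -1.15.

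Profiles that include the difference between genotypes lay closer together within the erythroid set than within the platelet set. The root mean square difference between the centred log2 profiles of 2 genes, over the 6 libraries, had a median of 0.14 over the 10 erythroid pairs (0.10 to 0.22), 0.34 over the 10 platelet pairs (0.14 to 0.63) and 0.41 over the 25 pairs of a platelet with an erythroid marker (0.22 to 0.70). With the mean of each genotype removed first, the 2 sets were less unlike. Erythroid pairs then lay at 0.06 to 0.15, platelet pairs at 0.09 (Ppbp and Itga2b) to 0.34, and pairs between the sets at 0.22 to 0.61. All these values are a description of 6 libraries, and low genes such as Gp9 vary less on this scale. The FPKM ratio of Hba-a1 to Hba-a2 was 1.97 to 2.31 in KO and 1.95 to 2.46 in WT, and that of summed alpha to summed beta globin was 0.733 to 0.857 in KO and 0.752 to 0.847 in WT. The ratio of Hbb-bs to Alas2 varied more, from 52.4 to 66.7 in KO and from 43.2 to 57 in WT. The ratio of Pf4 to Ppbp ranged from 2.73 to 3.25 in KO and from 2.43 to 3.35 in WT, with overlapping groups.

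The change of Pf4 was not shown to exceed that of Hbb-bs, and the platelet and erythroid sets as wholes were not compared by a test. Itga2b, at a log2 fold change of 0.01, was below Hbb-bs at 0.52. Gp9 and Gp1bb were at 0.49 and 0.41, but their place below Hbb-bs depends on the added 1. With 0.1 added to the FPKM instead, Gp9 and Gp1bb were at 0.78 and 0.79, above Hbb-bs at 0.52. The log2 ratio of Pf4 to Hbb-bs, computed from FPKM + 1, was -2.25, -1.29 and -1.98 in KO replicates 2, 3 and 4, and -2.54, -3.29 and -1.71 in WT replicates 2, 3 and 4. The KO mean was higher by 0.67, but WT replicate 4 lay above 2 of the KO libraries, and by an exact permutation test, two-sided, p was 0.3, where 0.1 is the smallest value that 3 against 3 libraries allow. The difference was 0.51 with Ppbp in place of Pf4 (exact permutation p = 0.3) and 0.97 with Alas2 in place of Hbb-bs (exact permutation p = 0.2). It was 0.40 without KO replicate 3, 0.28 without WT replicate 3 and 1.07 without WT replicate 4.

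The size of a change was also set beside transcript length. The lengths implied by the deposited values were 559 and 563 nt for Hba-a1 and Hba-a2, 639 and 630 nt for Hbb-bs and Hbb-bt, 588 nt for Pf4 and 1083 nt for Ppbp, all among the 2162 genes of shortest transcript, of which 59.8% were higher in KO. Among the 261 tested genes of up to 650 nt, which include the 4 globin genes and Pf4, 68.6% were higher in KO and the median log2 fold change was 0.54. The globin values of 0.52 to 0.56 were at that median, while Pf4 was at 1.19. Gp1bb, Alas2 and Gp9 (2085, 2018 and 2622 nt) belong to the next 2161 genes by length, with a median of 0.11 and 20.4% higher. Itga2b (3437 nt) belongs to the 2161 after those, with a median of -0.05 and 7.54% higher.

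**Figure D3:**
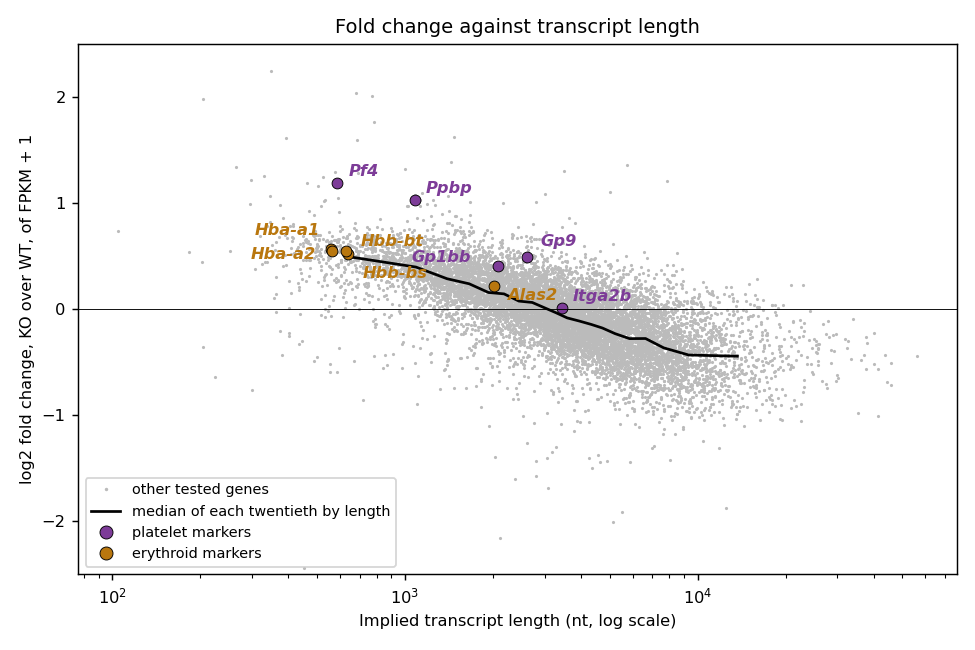
Log2 fold change, KO over WT, of each of the 10806 tested genes against its implied transcript length on a log axis, with the median of each twentieth of genes by length as a line. The 4 globin genes lie on the line for short transcripts, and Pf4 at 1.19 and Ppbp at 1.03 lie above it.

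When the trend on transcript length was removed from each library, the 4 globin genes did not pass limma. Their log2 fold changes were 0.02 for Hba-a1, 0.01 for Hba-a2, 0.01 for Hbb-bs and 0.04 for Hbb-bt, with unadjusted p-values of 0.769 to 0.974 and adjusted p-values of 0.862 to 0.985. Ppbp kept a log2 fold change of 0.65 (SE 0.15, limma adjusted p = 0.0187) and Gp9 one of 0.43 (SE 0.10, limma adjusted p = 0.0227), in a fit where 18.7% of genes passed, 9.26% higher and 9.42% lower. Pf4 had 0.66 (SE 0.25, limma adjusted p = 0.0946) and Gp1bb 0.26 (limma adjusted p = 0.134), neither past the threshold. Itga2b and Alas2 were at 0.07 and 0.06. The length trend itself runs with genotype in these libraries, so the part of a change that follows length and the part that follows genotype cannot be told apart.

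**Figure D4:**
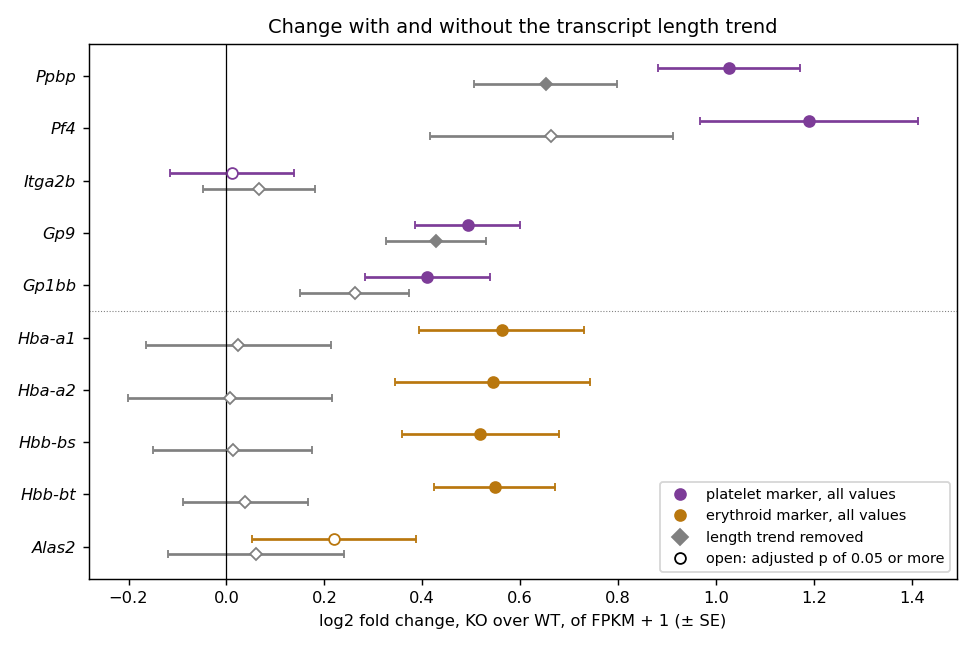
Log2 fold change, KO over WT, with its SE for each marker, from the values as deposited (coloured circles) and with the transcript length trend removed (grey diamonds); open symbols have an adjusted p of 0.05 or more. The 4 globin genes move to between 0.01 and 0.04, whereas Ppbp at 0.65 and Gp9 at 0.43 keep filled symbols.

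In the authors' deposited table, which holds their own comparison of KO with WT, 6 of the 10 markers were higher at q under 0.05, where 13.6% of its 17686 genes were. In the authors' deposited table Ppbp had a log2 fold change of 1.15 (q = 4.28e-10) and Pf4 one of 1.25 (q = 6.85e-09). The globin genes were divided in the authors' deposited table, with q = 0.000946 for Hbb-bt, 0.0105 for Hba-a2, 0.0524 for Hbb-bs and 0.061 for Hba-a1, although their log2 fold changes of 0.57 to 0.63 were alike.

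Other platelet and megakaryocyte genes moved in both directions. Of 22 listed genes, all measured, 11 passed the filter, and of these 3 were higher and 2 lower in KO (background 18.3% and 25.8%), with a median log2 fold change of 0.19 against -0.03 over all tested genes. Treml1, a receptor of platelet alpha granules, had 2.73 ± 0.513 FPKM in KO and 1.31 ± 0.352 FPKM in WT (limma adjusted p = 0.00424), and Nrgn, a calmodulin-binding protein also found in neurons, had 21.3 ± 0.577 FPKM in KO and 13.3 ± 1.4 FPKM in WT (limma adjusted p = 0.000635). Clec1b, the platelet podoplanin receptor, was the third, chosen here after its values were seen, at 2.62 ± 0.0631 FPKM in KO and 1.7 ± 0.758 FPKM in WT (limma adjusted p = 0.0486), and that call was lost without any 1 of KO replicates 2, 3 and 4 and WT replicates 3 and 4 (limma adjusted p from 0.0845 to 0.169). All 3 higher genes are among the 2162 genes of shortest transcript, of which 59.8% were higher. Nfe2, a transcription factor of platelet release, lay under the filter at 0.893 ± 0.331 FPKM in KO and 0.249 ± 0.0803 FPKM in WT. With the length trend removed, Nrgn alone of the 11 was higher (log2 fold change 0.33, limma adjusted p = 0.0366), Treml1 had 0.36 (limma adjusted p = 0.0972) and 1 gene was lower.

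The lower genes were ones that endothelium also makes. Itgb3, the partner of Itga2b and also an endothelial integrin, had 4.7 ± 1.37 FPKM in KO and 8.57 ± 1.93 FPKM in WT (log2 fold change -0.75, limma adjusted p = 0.0092), a call lost with the length trend removed (-0.49, limma adjusted p = 0.0837) and without an expression filter (limma adjusted p = 0.0729). Mmrn1, a platelet granule protein also made by lymphatic endothelium, had 2.08 ± 0.784 FPKM in KO and 7.26 ± 1.14 FPKM in WT (log2 fold change -1.44, limma adjusted p = 0.000518). In the list of genes shared by platelets and endothelium, which includes both, 7 of 10 tested members were lower and 1 higher, where 25.8% and 18.3% of all tested genes were. Among them Vwf, the von Willebrand factor gene, had 27.7 ± 2.16 FPKM in KO and 61.1 ± 5.49 FPKM in WT, and Selp, the P-selectin gene, had 12.5 ± 1.62 FPKM in KO and 23.2 ± 3.08 FPKM in WT. With the length trend removed 5 of these 10 were lower, against 9.42% of all tested genes. The 5 include Cd9, which had not passed before, at a log2 fold change of 0.12 (limma adjusted p = 0.203). After the removal Cd9 was at -0.22 (limma adjusted p = 0.0321). Besides Itgb3, the calls of Thbs1 and Pdgfb were lost (limma adjusted p = 0.167 and 0.712).

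Few other erythroid genes were detected. Of 22 listed genes 17 were in the table and 12 of these stayed under 0.2 FPKM in every library, among them Slc4a1 (band 3 of the red cell membrane), Ahsp (a chaperone of alpha globin) and the transcription factor genes Klf1 and Gata1. The summed level of the 17 was 21.8 to 22.4 FPKM in KO and 22 to 23.3 FPKM in WT, most of it from Bpgm, Slc25a37, Tfrc and Epor, which other cells use too. Of these 4, which were the tested members, Tfrc, the transferrin receptor gene, was lower, at 1.51 ± 0.156 FPKM in KO and 2.71 ± 0.515 FPKM in WT (limma adjusted p = 0.00583), a call lost with the length trend removed (log2 fold change -0.34, limma adjusted p = 0.0559). The embryonic and theta globin genes were near 0 or not in the table: Hbq1a and Hbq1b were at 0 FPKM in each KO library and at 0 to 0.205 FPKM in WT.

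Enzymes that make and break down haem were examined because Alas2 feeds the first pathway and released haem the second. Of the 7 tested haem synthesis enzymes beside Alas2, 2 were higher and 1 lower in KO, numbers near the 18.3% and 25.8% of all tested genes. Urod had 32.4 ± 2.52 FPKM in KO and 26.1 ± 0.981 FPKM in WT (limma adjusted p = 0.0116), a call lost without WT replicate 4 (limma adjusted p = 0.056). Cpox had 2.53 ± 0.194 FPKM in KO and 3.44 ± 0.206 FPKM in WT (limma adjusted p = 0.0181), lost without KO replicate 2 or WT replicate 2 (limma adjusted p = 0.0684 and 0.0567). After removal of the trend on length Cpox was lower and Alad higher (limma adjusted p = 0.0404 and 0.0203).

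Of 5 tested genes of haem breakdown and globin scavenging, 4 were higher and 1 lower in KO, where 18.3% and 25.8% of all tested genes were. Of the 4, Hmox1, Blvra and Blvrb are among the 2162 genes of shortest transcript, of which 59.8% were higher. Hmox1, the inducible haem oxygenase gene, had 69.1, 84.3 and 54.8 FPKM in KO replicates 2, 3 and 4, against 44.2, 33.7 and 50.3 FPKM in WT replicates 2, 3 and 4 (log2 fold change 0.68, limma adjusted p = 0.00911). Its order within each genotype was that of Pf4, with KO replicate 3 highest and WT replicate 3 lowest. Hmox2, the constitutive form, had 46 ± 3.26 FPKM in KO and 32.5 ± 2.33 FPKM in WT, and the biliverdin reductase genes Blvra and Blvrb rose 1.38-fold and 1.47-fold. Lrp1, a scavenger receptor gene, was the lower one, at 1.26 ± 0.259 FPKM in KO and 2.84 ± 1.04 FPKM in WT. The Lrp1 call was lost with the length trend removed (log2 fold change -0.28, limma adjusted p = 0.247). With the length trend removed Hmox2 and Blvra still passed (limma adjusted p = 0.00925 and 0.0469), while Hmox1 had 0.43 (limma adjusted p = 0.124).

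Some leukocyte markers were higher in KO too. Of 10 listed genes 7 were tested and 4 were higher (18.3% of all tested genes), or 3 with the length trend removed (9.26% of all), where Lyz2 did not pass (limma adjusted p = 0.182). All 4 higher genes are among the 2162 genes of shortest transcript, of which 59.8% were higher. The other 3 tested genes did not pass: the log2 fold change was -0.03 for Ptprc, 0.16 for Adgre1, a macrophage receptor gene, and 0.27 for Csf1r, the receptor gene of a macrophage growth factor (limma adjusted p = 0.895, 0.618 and 0.386). Within each genotype the libraries of Adgre1 and of Csf1r ran in the order of Pf4, although WT replicate 4 was their highest library of all. Ptprc had the order of Pf4 in WT but not in KO. Over the 10 listed genes the summed level was 193.8 to 291.1 FPKM in KO and 80.1 to 181.1 FPKM in WT. S100a8, a neutrophil calprotectin gene, had 24.8, 18 and 15.7 FPKM in KO replicates 2, 3 and 4, and 4.09, 5.22 and 8.09 FPKM in WT replicates 2, 3 and 4. S100a9, its partner, and Cd79a, a B cell receptor gene, also rose, to 23.7 ± 5.74 and 11.1 ± 2.3 FPKM in KO, against 9.24 ± 0.893 and 3.81 ± 0.629 FPKM in WT. Lyz2, the lysozyme gene of macrophages and neutrophils, had 199.4, 228.3 and 142.8 FPKM in KO replicates 2, 3 and 4, and 86.6, 58.1 and 149.2 FPKM in WT replicates 2, 3 and 4, so that its highest and lowest libraries, KO replicate 3 and WT replicate 3, were those of Pf4. Ly6g, a defining neutrophil gene, was under 0.2 FPKM in every library. The part of leukocytes, or of other cells carried through the sort, in the changes of Pf4 and the other markers was not tested.

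The genes whose profiles were closest to those of 1 marker from each set were also found, among 10796 tested genes outside the 10 markers. For Pf4 they were Ccl9 (a chemokine), Clec4n (the lectin dectin-2), Lgals3 (galectin-3), Bcl2a1b (a survival factor of the BCL2 family) and C1qa (a complement subunit), with root mean square differences of 0.09 to 0.14 on the log2 scale, closer than Ppbp at 0.19; the median over all candidates was 0.70. For Hbb-bs they were 1700030C10Rik, Chchd5, Psmb9, Sdhaf4 and Gamt, at 0.09 to 0.11, with a median of 0.39, and the other globin genes were at 0.10 to 0.11. Alas2 was at 0.20 from Hbb-bs. The other platelet markers Gp9, Gp1bb and Itga2b were further from Pf4 than Ppbp was, at 0.49, 0.50 and 0.63. These distances describe 6 libraries that share the length trend and genotype.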

How the data were processed

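The authors deposited FPKM for every gene in every library, with columns named by genotype and replicate number. A second deposited table holds, per the file headers, the authors' mean normalized signal of each group, their fold change as a ratio, its log2, and a p-value with its q-value from DESeq2. The submitters' processing notes name mm10, HISAT2 2.1.0, featureCounts 1.6.2 and DESeq2 1.22.1 among other tools, with no role or order. Libraries were grouped by title.

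Ratios of FPKM to the authors' group means gave the whole reads behind each value for 17686 genes (of values below 1000 reads, 100.0% lay within 0.05 of a whole number), and from them depth and implied transcript length. Read numbers cover counting error only. Genes with at least 1 FPKM in at least 3 libraries were fitted with limma 3.58.1 (R 4.3.3, trend) on log2(FPKM + 1), adjusted over all tested genes by Benjamini-Hochberg at 0.05. The calls of the fit were tested on simulated counts of independent genes, all with the same small dispersion and without a length trend. That simulation therefore does not cover calls made where a length trend runs with genotype. It also does not cover genes whose libraries varied more than was simulated, such as Pf4 in WT (26.3 ± 9.25 FPKM). The length trend was a loess curve of each library's deviation from the gene mean on log2 length. Count models had been planned as alternatives; the tables hold no counts column, and limma-voom on the recovered reads was added instead. The rest used Python 3.11.15 with scipy 1.17.1, pandas 2.3.3, numpy 2.4.6 and matplotlib 3.10.9. Coordinates and overlaps were taken from the NCBI annotation of GRCm38.p6 by gene ID.

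The markers, gene lists and tests were chosen with earlier results of these data known. Named genes are the 10 markers, Ccl28, Pecam1, Cdh5 and Ptprc. Up to 5 genes per list, by smallest limma p without a filter, and the 5 nearest to Pf4 and to Hbb-bs are also named. Overlapping genes, genes named as low, Epor, Adgre1, Csf1r, Cd9, Thbs1 and Pdgfb were added after their values were seen. Of the endothelial list, 3 of 8 tested genes were lower (Tek, Kdr and Cdh5) and 2 higher (Emcn and Egfl7). Single values of some listed genes are not reported here.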

Additional observations from a re-analysis of the deposited data

How the results depend on the processing

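With 3 libraries per genotype, no exact test of a single value can pass 0.05, and Gp1bb and Gp9 rest on at most 200 reads per library. Of the 10 markers 8 were called, with Gp1bb, which passed the filter only through KO, among them. The count was 4 without an expression filter, 5 with quantile normalization, 2 with the length trend removed, and 4 to 7 with 1 library left out. The platelet count of 4 went to 2 with the length trend removed and to 2 at an FPKM of at least 5, where only Ppbp and Pf4 remained in the test. The platelet count was 3 to 4 with 1 library left out, and Gp1bb was not in the test where that was a KO library. The erythroid count of 4 went to 1 without a filter, 1 with quantile normalization (Hbb-bt in both) and 0 with the length trend removed, and it was 1 to 4 with 1 library left out, at 1 without KO replicate 2 or WT replicate 4. Over all genes, 4772 calls (1982 higher, 2790 lower) became 2019 (1001 higher, 1018 lower) with the length trend removed, and 3284 to 4346 with 1 library left out. Median-ratio scaling gave 2576 higher and 2390 lower, and quantile normalization 2207 and 2359. Ppbp passed in all 14 alternatives run and Gp9 in the 13 in which it was tested; Itga2b (log2 fold change -0.10 to 0.15) and Alas2 (0.05 to 0.37) passed in none of theirs. The Pf4 to Hbb-bs difference was 0.28 to 1.07 with 1 library left out. Emcn turned to -0.079 under quantile normalization and to -0.045 once the length trend was removed, and Egfl7 to -0.13 with quantile normalization; the causes were not tested. Deviations of same-numbered libraries from the means of their genotypes correlated across genes at -0.35 to -0.20. Such deviations cancel over the 3 libraries of a genotype, so these correlations cannot decide whether equal replicate numbers pair the libraries. With the replicate number as a block 8 markers and 3749 genes were called, and the Pf4 to Hbb-bs difference of 0.67 had p = 0.5 in an exact permutation within pairs.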
